A study of Mus musculus with 12 samples.

Results

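Contactins and teneurins are 2 families of neuronal surface proteins, and the 10 genes described here are Cntn1 to Cntn6 and Tenm1 to Tenm4, taken by their names from the 24489 genes of the count table. They were followed in single cells of the developing mouse cochlea, across stages from E14.5 to P3 (embryonic and postnatal days), across classes of spiral ganglion neurons (SGNs), and in the glia-like, otic mesenchyme (OM)-like and hair cell (HC)-like cells of the same plates. Contactins are immunoglobulin-family adhesion proteins held at the membrane by a lipid anchor, which bind one another, L1-type adhesion proteins, contactin-associated proteins and receptor phosphatases. Teneurins are large transmembrane proteins that bind one another and the latrophilin receptors across the gap between cells, and Tenm3 is known for its part in matching axons to their targets in the visual system and hippocampus. In the cochlea, type I SGNs innervate inner hair cells and type II SGNs innervate outer hair cells, so proteins of this kind act in the setting of growing and target-seeking axons.

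Cells that carried a tdTomato reporter were sorted from dissected cochleae into 384-well plates and their poly(A) RNA was read by Smart-seq2, a full-length method without molecular barcodes. The 12 plates comprised 3 replicates at E16.5, 1 at E17.5 and 2 at each other stage, namely P3, E18.5, E15.5 and E14.5. The labels give PVcre;Ai14 for 11 plates, in which Cre is driven by the parvalbumin gene and Ai14 is the tdTomato reporter, and TrkCcre for replicate 2 of E14.5. The labels name no other allele and no treatment at any stage. E14.5 replicate 1 is labelled PVcre;Ai14 although the study's methods name the Ntrk3 (TrkC) driver for E14.5, and plates pooled several embryos or pups, so a replicate here is a plate and not an animal. The labels do not tie animals to plates, and the p-values measure the spread between plates, part of which may be technical.

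After a filter on genes detected and spike-in share, 4226 of 4608 wells were kept, with 125 to 382 cells and 80997594 to 303906928 gene counts per plate. Clustering without the 10 genes gave 2259 SGN-like, 1248 glia-like, 567 OM-like and 86 HC-like cells, and counts were summed over the cells of a class on a plate where there were at least 5 cells. Levels are given as CPM, the standard scale on which the counts of all genes in a sum are brought to the same total. The SGN-like sums held 12 of 12 SGN markers at 10 CPM or more on every plate, the glia-like sums 12 of 12 glial markers, the OM-like sums 13 to 14 of 14 mesenchymal markers and the HC-like sums of E18.5 8 of 8 hair cell markers. Plate series moved with stage: all E14.5, E15.5 and E17.5 plates and replicate 3 of E16.5 were of the series SS2_20, replicates 1 and 2 of E16.5 of SS2_18, E18.5 of SS2_19 and P3 of SS2_15. Stage and plate series can therefore be told apart only within SS2_20, and median genes per SGN-like cell ran from 5775 to 7337.5 in that series and from 8379.5 to 9327.5 in the others. Cre driver also moved with stage within SS2_20, by the label of E14.5 replicate 2 and, for all of E14.5, by the study's methods. The part of the driver in the differences between E14.5 and later stages was not tested.

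Several sums stood apart from their names. The glia-like sums of E16.5 replicates 1 and 2 (22 and 11 cells) held 7409 and 9285 CPM of summed SGN markers, against 544 to 766 CPM in the glia-like sums of the SS2_20 plates. The OM-like sums of the same 2 plates (5 and 10 cells) held 7220 and 9253 CPM, against 181 to 287 CPM in the SS2_20 plates. Calls of the 10 genes in glia-like and OM-like cells are therefore given with and without the SS2_18 plates. The glia-like sums of E18.5 (37 and 28 cells) held 5995 and 5645 CPM of SGN markers and its 1 OM-like sum (6 cells) held 6689 CPM, beside 9823 CPM of glial and 9826 CPM of OM markers, and these 3 sums entered no test. In the other direction, summed glial markers in the SGN-like sums were 149 to 160 CPM at E14.5, 168.2 to 1098 CPM at E16.5, 184.5 to 4077 CPM at E17.5 and E18.5 and 5558 to 6746 CPM at P3. Among the E14.5 SGN-like cells, 16 formed a cluster led by nociceptor genes (Prdm12, Prrxl1 and Gfra3) and were left without a class name. A further 49 of 130 SGN-like cells at E14.5 had no class name, as had 46 of 167 at E15.5, 215 of 773 at E16.5 and 89 of 688 at E17.5/E18.5. Another 72 cells of E17.5/E18.5 lay between Ic and Ib, beside 48 named Ib-like. All these cells were left out of the comparisons between neuron classes, which therefore do not cover all SGN-like cells.

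On the mouse genome build GRCm38, with the gene models of GENCODE M21, the 10 genes are all protein coding. Cntn3 (chr6:102162655-102573101, minus strand), Cntn6 (chr6:104492790-104863406, plus strand) and Cntn4 (chr6:105677660-106699310, plus strand) share chromosome 6, and the other 7 genes each lie on a chromosome of their own. Cntn1 is at chr15:92051165-92341967 on the plus strand, Cntn2 at chr1:132509427-132543256 on the minus strand and Cntn5 at chr9:9660891-10904775 on the minus strand. Tenm1 is at chrX:42527866-43429126, Tenm2 at chr11:36006656-37235964 and Tenm3 at chr8:48227682-48843951, all on the minus strand, and Tenm4 is at chr7:96171246-96911093 on the plus strand. Cntn2 spans 33830 bases, while the other 9 genes span 290803 to 1243885 bases. Reads were summed over whole genes, so isoforms and alternative start sites were not separated.

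The promoters of 4 genes that differed between type I classes late in development, Tenm2 and Tenm3 (higher in Ib-like and Ic-like than in Ia-like cells) and Cntn3 and Cntn5 (lower in Ic-like than in Ia-like cells), are shown to compare their composition. Each window runs from 250 bases before to 50 bases after a RefSeq transcription start on GRCm38.p6, 5′ to 3′ on the gene's strand, with CG dinucleotides in capitals. The windows are chr11:36944192-36944491 for Tenm2, chr8:48674641-48674940 for Tenm3, chr6:102464618-102464917 for Cntn3 and chr9:10904726-10905025 for Cntn5, all on the minus strand.
Tenm2: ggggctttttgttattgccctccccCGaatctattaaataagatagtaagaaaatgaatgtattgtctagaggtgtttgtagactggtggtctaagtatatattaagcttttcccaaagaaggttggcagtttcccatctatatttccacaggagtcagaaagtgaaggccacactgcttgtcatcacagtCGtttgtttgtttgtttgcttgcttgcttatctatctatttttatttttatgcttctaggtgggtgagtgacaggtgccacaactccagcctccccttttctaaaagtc
Tenm3: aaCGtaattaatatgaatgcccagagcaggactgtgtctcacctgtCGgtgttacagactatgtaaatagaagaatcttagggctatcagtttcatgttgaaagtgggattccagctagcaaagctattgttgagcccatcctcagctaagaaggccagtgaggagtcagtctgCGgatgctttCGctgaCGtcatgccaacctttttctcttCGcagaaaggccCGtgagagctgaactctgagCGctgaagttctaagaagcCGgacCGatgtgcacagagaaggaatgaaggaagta
Cntn3: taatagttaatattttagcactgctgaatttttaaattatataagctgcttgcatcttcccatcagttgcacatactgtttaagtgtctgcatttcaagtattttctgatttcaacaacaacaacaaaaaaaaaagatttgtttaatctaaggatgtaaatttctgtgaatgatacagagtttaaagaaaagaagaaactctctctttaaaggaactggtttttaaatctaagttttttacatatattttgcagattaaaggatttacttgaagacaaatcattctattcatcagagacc
Cntn5: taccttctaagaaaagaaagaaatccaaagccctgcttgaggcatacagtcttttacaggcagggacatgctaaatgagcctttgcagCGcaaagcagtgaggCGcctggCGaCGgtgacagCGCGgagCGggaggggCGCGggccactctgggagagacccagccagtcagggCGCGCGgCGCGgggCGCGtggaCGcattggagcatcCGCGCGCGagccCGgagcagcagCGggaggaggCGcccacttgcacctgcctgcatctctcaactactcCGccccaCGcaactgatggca
The 4 windows held 2, 10, 0 and 26 CG dinucleotides for Tenm2, Tenm3, Cntn3 and Cntn5, against a median of 7 over 32817 RefSeq windows of that length. Only 5.43% of all windows held none, as that of Cntn3 did, and 26.5% held 20 or more, as that of Cntn5 did. On either strand, none of these 4 windows held TGTGGT (a core that RUNX factors bind), CAGCTG (an E-box) or TATAAA, which occur in 16.8%, 16.3% and 13.6% of all windows. Each window marks 1 listed start. The windows of Tenm2, Tenm3 and Cntn3 lie inside the GENCODE gene, downstream of its first base, so other starts of these genes were not examined.

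In SGN-like cells the 10 genes covered a wide range of levels. Per kilobase of exon, which is the only scale on which levels of different genes are compared here, Cntn5 was highest at E16.5 with 91.9 ± 10.3 CPM per kb (SD, n = 3 plates). Tenm3 followed at 32.3 ± 4.88, Cntn1 at 21.2 ± 0.73, Cntn2 at 9.39 ± 0.85, Tenm2 at 5.76 ± 1.45 and Tenm4 at 3.37 ± 0.39 CPM per kb. Cntn4 (1.09 ± 0.34) and Cntn3 (1.04 ± 0.50 CPM per kb) were within their spread of each other, as were Cntn6 (0.48 ± 0.16) and Tenm1 (0.33 ± 0.068 CPM per kb). At E14.5 the 4 leading genes were not separated: Cntn2 was at 27.1 ± 5.70, Cntn5 at 26.8 ± 16.3, Tenm3 at 26.7 ± 1.30 and Cntn1 at 24.2 ± 7.37 CPM per kb (SD, n = 2). By P3 Cntn1 led with 32.3 ± 1.03 CPM per kb, Cntn5 (16.7 ± 6.17) and Tenm3 (16.2 ± 0.72) overlapped below it, and Cntn4 had no read on either plate.

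The stage comparisons ask which of the genes changed as SGNs matured. From E14.5 to E16.5 Cntn5 rose while Cntn2 and Tenm4 fell, and from late gestation to P3 Cntn1 rose while Cntn4, Cntn5, Tenm2, Tenm3 and Tenm4 fell. Stage effects come from edgeR's quasi-likelihood test over the 12 SGN-like sums, with p-values adjusted over all 16715 genes tested and a gene called at an adjusted p under 0.05. Between E14.5 and E16.5 3 of the 10 genes were called against 12.3% of all genes, and the median log2 fold change of the 10 was 0.68 against 0.06 over all genes. Between E16.5 and the merged E17.5/E18.5 group edgeR called 0 of the 10 (0.485% of all genes), with 5 at an unadjusted p under 0.05, as were 2112 of the 16715 genes, and DESeq2 also called 0. Between E17.5/E18.5 and P3 6 of the 10 were called against 30% of all genes, with a median log2 fold change of -1.03 against -0.06 over all genes.

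**Figure D1:**
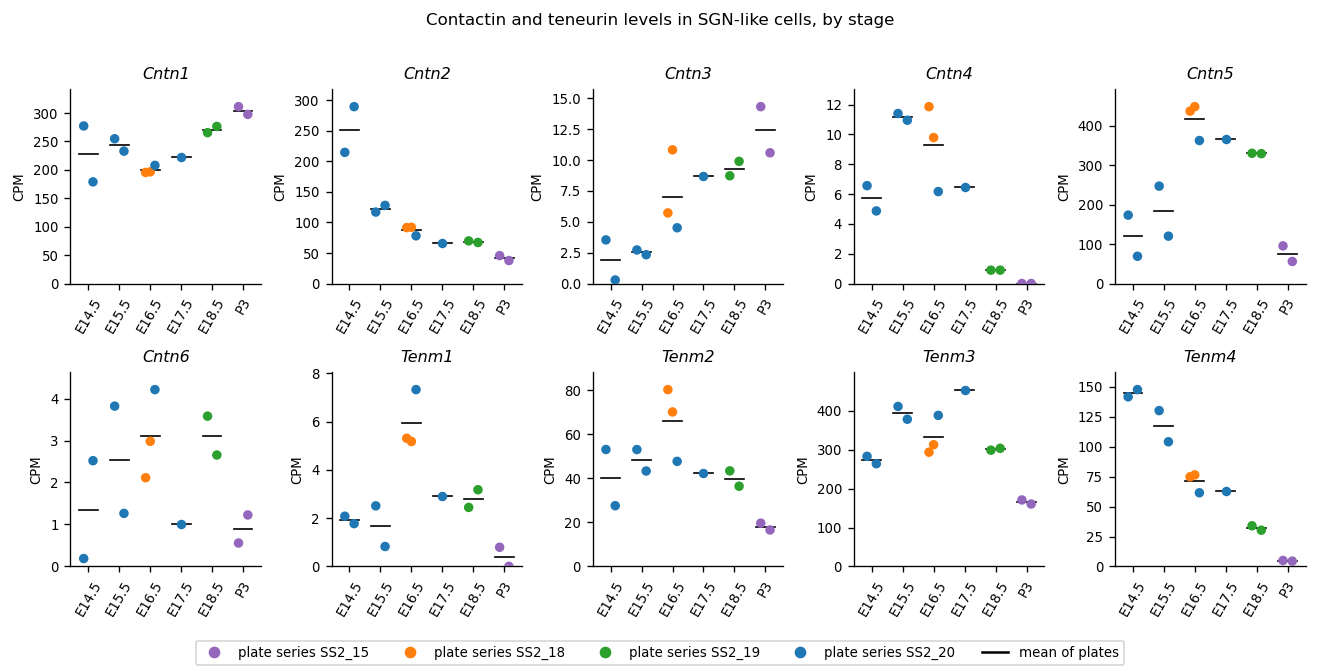
Level of each contactin and teneurin gene in SGN-like cells, in CPM (linear axes that start at 0 and differ between genes), against stage. Each point is the sum over the SGN-like cells of 1 plate, coloured by plate series, and bars are stage means; Cntn2 and Tenm4 are highest at E14.5, Cntn5 is highest at E16.5 with 363 to 449 CPM, and Cntn4 is at 0 on both P3 plates.

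Cntn2 (TAG-1), a contactin of early axons and later of the axon beside the node of Ranvier, was at 289.8 and 215 CPM on the E14.5 plates, 117 and 128 CPM at E15.5, and 91.6, 92.2 and 78.2 CPM at E16.5. It went on to 66.1 CPM at E17.5, 69.9 and 67.3 CPM at E18.5 and 45.7 and 37.7 CPM at P3. No plate of an earlier stage was below any plate of a later stage from E14.5 to E16.5, and the P3 plates were the lowest of all 12. The log2 fold change from E14.5 to E16.5 was -1.56 ± 0.15 (SE), a 2.95-fold fall (adjusted p = 0.000136), and it was -1.70 ± 0.24 within the SS2_20 plates (adjusted p = 0.0174). From E17.5/E18.5 to P3 the value was -0.42 ± 0.15 and was not called (adjusted p = 0.0541), although 6 of 21 alternative settings called it.

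Cntn5 (NB-2), a contactin known from the auditory brainstem pathway, was at 69.2 and 174 CPM at E14.5, 247 and 120.3 CPM at E15.5, and 438, 449 and 363 CPM at E16.5. It stayed at 367 CPM at E17.5 and 331 and 329.6 CPM at E18.5, and was at 95.6 and 56.0 CPM at P3. All E16.5 to E18.5 plates lay above all others, so its course was a rise followed by a fall. The rise to E16.5 was 3.37-fold (log2 1.75 ± 0.40, adjusted p = 0.0163); within the SS2_20 plates it was 1.58 ± 0.51 and not called (adjusted p = 0.201), nor was it called without E14.5 replicate 1 (adjusted p = 0.0872). The fall to P3 was 3.73-fold (log2 -1.90 ± 0.40, adjusted p = 0.00432) and was not called without P3 replicate 2 (adjusted p = 0.0544).

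Cntn4, a contactin that binds the amyloid precursor protein App, was at 4.87 and 6.56 CPM at E14.5, 11.4 and 10.95 CPM at E15.5, 11.9, 9.79 and 6.17 CPM at E16.5 and 6.45 CPM at E17.5. It was at 0.898 and 0.897 CPM at E18.5, and neither P3 plate held a read of it in 303906928 and 147486480 counts. The 3 plates of E17.5/E18.5 did not overlap with P3, but the SS2_20 plate of E17.5 lay well above the SS2_19 plates of E18.5. For scale, 3 counts over both P3 plates would be 0.00665 CPM, against an E17.5/E18.5 mean of 2.75 ± 3.21 CPM (SD, n = 3). This floor covers counting error only and does not bound the fold, because few cells carried the gene. At E18.5 1.58% and 2.66% of SGN-like cells held a read once each cell was thinned to 50000 counts. The test called this fall (adjusted p = 0.000555) in every alternative but the cell filter of the study's Reporting Summary (adjusted p = 0.247), under which the fitted log2 value was -2.51 in place of -10.72. The fitted size of this fall thus depended on the cell filter. Fitted values of a gene at 0 also depend on the prior count and are no bound. Without the E17.5 plate, Cntn4 was also called lower at E18.5 than at E16.5 (adjusted p = 0.00575), while with it the adjusted p was 0.347.

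Cntn1, the axonal contactin that forms the junction with myelinating glia together with Cntnap1, ranged only from 179 to 311 CPM over the 12 plates. The P3 plates were at 311 and 298 CPM, above the 223, 265.5 and 276.5 CPM of E17.5/E18.5. This rise was 1.45-fold (log2 0.53 ± 0.16, adjusted p = 0.0262). It was lost without either P3 plate, without E18.5 replicate 1 or E17.5, and in the SGN-like cells with the least glial signal, with adjusted p from 0.0529 to 0.242.

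Cntn3 and Cntn6 were low in SGN-like cells, and neither was called in a stage comparison under the main settings. Cntn3 was at 0.286 and 3.53 CPM at E14.5, 2.72 and 2.34 CPM at E15.5, 4.52 to 10.8 CPM at E16.5, 8.73 to 9.90 CPM at E17.5 and E18.5 and 14.3 and 10.6 CPM at P3. All plates from E16.5 on thus lay above those of E14.5 and E15.5, while E16.5 overlapped with the later stages. The log2 value was 1.87 ± 0.76 from E14.5 to E16.5 (adjusted p = 0.138) and was called with DESeq2 (adjusted p = 0.0382), without E14.5 replicate 2 (adjusted p = 0.00378) and in the cells with the least glial signal (adjusted p = 0.00565). Cntn6 ranged from 0.189 to 4.21 CPM with overlap between all stages up to E18.5, and was at 0.559 and 1.23 CPM at P3. Its log2 value from E14.5 to E16.5 was 1.15 ± 0.98 (adjusted p = 0.474), called only in the cells with the least glial signal (adjusted p = 0.022).

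Among the teneurins, Tenm4 fell the most. It was at 148 and 142 CPM at E14.5, 130.0 and 104 CPM at E15.5, 74.8, 76.4 and 61.5 CPM at E16.5 and 63.1 CPM at E17.5. At E18.5 it was at 33.95 and 30.25 CPM and at P3 at 5.03 and 4.475 CPM, so that each stage lay wholly below the one before it, except E17.5, which lay within E16.5. The fall from E14.5 to E16.5 was 2.08-fold (log2 -1.06 ± 0.27, adjusted p = 0.026). It was called within the SS2_20 plates (log2 -1.24 ± 0.23, adjusted p = 0.0402), but leaving out any 1 of the 5 plates of these stages took the adjusted p to between 0.0629 and 0.114. The fall to P3 was 7.33-fold (log2 -2.87 ± 0.31, adjusted p = 9.37e-05) and was called in all 21 alternatives. Without the E17.5 plate Tenm4 was also called lower at E18.5 than at E16.5 (adjusted p = 0.00348, against 0.228 with it).

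Tenm3 was at 264 to 283 CPM at E14.5, 378 to 411 CPM at E15.5, 293 to 388 CPM at E16.5, 454 CPM at E17.5 and 298 and 303 CPM at E18.5. Both P3 plates (171 and 160.3 CPM) lay below all the others, a 1.76-fold fall from E17.5/E18.5 (log2 -0.81 ± 0.19, adjusted p = 0.00785) that was not called without P3 replicate 2 (adjusted p = 0.0662). Tenm2 peaked on the SS2_18 plates of E16.5 (80.3 and 70.2 CPM, against 47.7 CPM on the SS2_20 plate of that stage) and was at 27.6 and 53.1 CPM at E14.5. From E14.5 to E16.5 the log2 value was 0.69 ± 0.28 and not called (adjusted p = 0.137), and it was 0.24 within the SS2_20 plates. Tenm2 was called in 2 of 22 alternatives, among them without the E14.5 cluster led by nociceptor genes (adjusted p = 0.0173). It was at 42.3, 43.4 and 36.45 CPM at E17.5/E18.5 and at 19.7 and 16.6 CPM at P3, a 1.85-fold fall (log2 -0.89 ± 0.28, adjusted p = 0.0338). That fall was lost in the same 5 settings as the rise of Cntn1, with adjusted p from 0.066 to 0.245. Tenm1 stayed between 0.00678 and 7.33 CPM, with its highest plates at E16.5 (5.18 to 7.33 CPM), and edgeR called it in no stage comparison. Its P3 value (log2 -2.52, adjusted p = 0.137) was called with DESeq2 (adjusted p = 0.0424) and without P3 replicate 1 (adjusted p = 0.00216).

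Age, plate series and the glial markers given above move together between E17.5/E18.5 and P3, and the part of series and glial RNA in the P3 values cannot be told apart from age. In the SGN-like cells at or below their plate's median glial signal, 4 of the 10 genes were called at P3. There the log2 values of Cntn1 and Tenm2 were smaller, 0.33 and -0.54 (adjusted p = 0.242 and 0.245), against 0.53 and -0.89 in all SGN-like cells.

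The next comparisons ask which cells of the cochlea carried the genes between E14.5 and E17.5. Cntn1, Cntn2 and Cntn5 were SGN genes, with median levels far lower in glia-like and OM-like cells. Cntn3 and Tenm1 were higher in OM-like cells than in both other classes, Cntn4 was low in glia-like cells alone, and Tenm4 was higher in glia-like and OM-like cells than in neurons. One edgeR fit over 24 sums (8 per class, with stage as a term) called 7 of the 10 genes between glia-like and SGN-like cells (54.6% of all genes), 8 between OM-like and SGN-like cells (55.9%) and 5 between OM-like and glia-like cells (20.5%). The median log2 fold changes of the 10 were -2.30, -0.82 and -0.25, against 0.02, -0.03 and -0.06 over the 14596 genes tested. The first and second shares are near the background, so the counts themselves say little about these genes. Classes from 1 plate share its animals, and the blocked value, with plate as a term, is given where it changes a call.

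**Figure D2:**
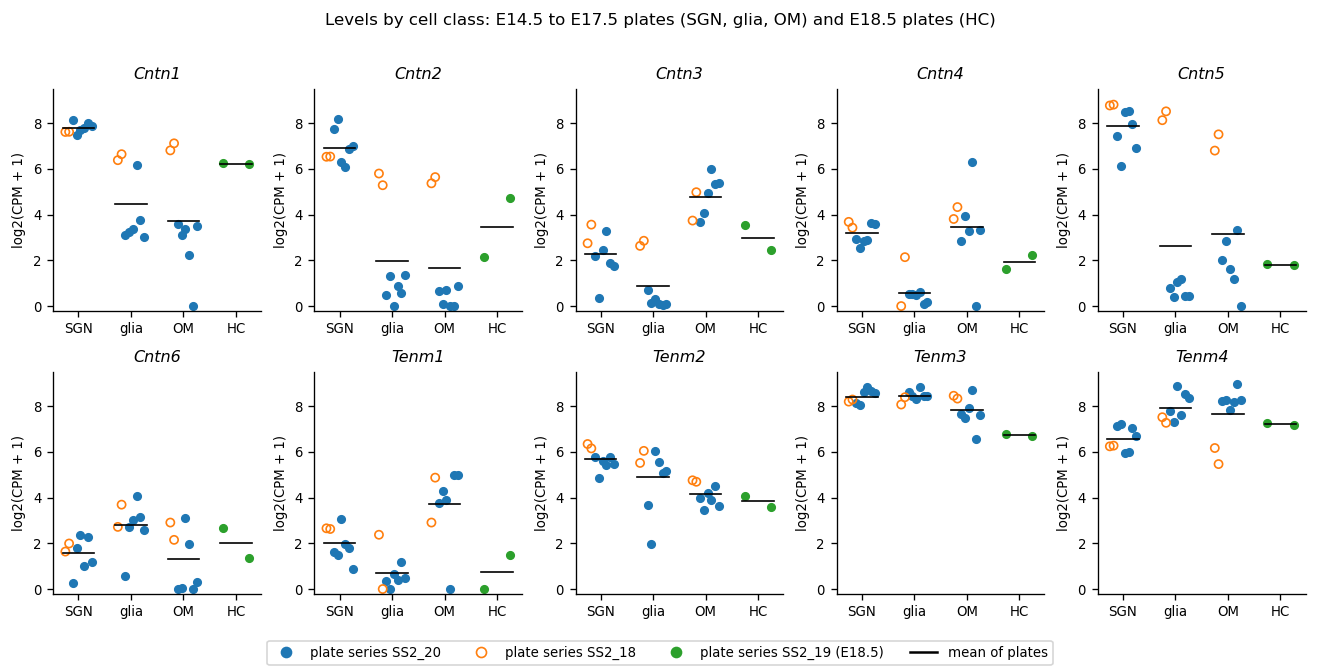
Levels of the 10 genes by cell class as log2(CPM + 1), for SGN-like, glia-like and OM-like sums of the 8 plates of E14.5 to E17.5 and HC-like sums of the 2 plates of E18.5; each point is 1 plate and bars are means. Open points mark the SS2_18 plates, whose glia-like and OM-like sums carry SGN markers and sit nearer to the SGN points than the other plates do for Cntn1, Cntn2 and Cntn5, and among them for Cntn5.

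Cntn2 ran from 66.1 to 289.8 CPM in SGN-like cells, with a median of 105 CPM. In glia-like cells it was at 0 to 1.59 CPM on the 6 SS2_20 plates and at 54.7 and 38.1 CPM on the SS2_18 plates, and in OM-like cells at 0 to 0.837 CPM and at 40.4 and 49.0 CPM. The groups did not overlap, and the distance was larger without the SS2_18 plates. Cntn2 was 80.9-fold lower in glia-like cells (log2 -6.34 ± 1.39, adjusted p = 0.000713) with all plates, and the log2 value was -7.53 ± 0.80 (adjusted p = 1.25e-06) without SS2_18. In OM-like cells the log2 value was -6.97 ± 1.50 (adjusted p = 0.000571), and -8.63 ± 0.89 (adjusted p = 9.19e-07) without SS2_18.

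Cntn5 ran from 69.2 to 449 CPM in SGN-like cells (median 305 CPM). On the SS2_20 plates it was at 0.298 to 1.26 CPM in glia-like and 0 to 9.19 CPM in OM-like cells, while on the SS2_18 plates it was at 279.8 and 366 CPM in glia-like and 111 and 182 CPM in OM-like cells. Those 2 plates thus decide how close the classes appear. It was lower in glia-like cells by log2 -5.62 ± 1.50 (adjusted p = 0.00346) with all plates, and the value was -8.36 ± 0.80 (adjusted p = 3.98e-07) without SS2_18. It was lower in OM-like cells by -5.13 ± 1.28 (adjusted p = 0.00206) and by -5.76 ± 0.72 (adjusted p = 6.54e-06) without them. Between OM-like and glia-like cells the log2 value was 0.49 ± 1.24 (adjusted p = 0.827) with all plates, and 2.59 ± 0.70, higher in OM-like cells, without SS2_18 (adjusted p = 0.0115).

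Cntn1 was at 179 to 277 CPM in SGN-like cells of these stages. In glia-like cells it was at 7.09 to 12.65 CPM on 5 SS2_20 plates, 71.5 CPM at E17.5 and 82.5 and 99.2 CPM on the SS2_18 plates. The E17.5 plate was the exception among the glia-like sums that were low in SGN markers. In OM-like cells Cntn1 ran from 0 to 138 CPM (median 9.88 CPM), a wide spread that lay below all SGN-like sums. Cntn1 was 11.3-fold lower in glia-like cells (log2 -3.50 ± 0.83, adjusted p = 0.00136) and 14.1-fold lower in OM-like cells (log2 -3.82 ± 0.86, adjusted p = 0.000847), and the log2 values were -4.09 ± 0.70 and -4.98 ± 0.70 without SS2_18.

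Cntn3, which is closely related in structure to Cntn4 and Cntn6, was the only contactin called higher in OM-like cells than in both SGN-like and glia-like cells. It was at 11.6 to 62.9 CPM in OM-like cells (median 30.45 CPM), at 0.286 to 10.8 CPM in SGN-like cells and at 0.0338 to 0.653 CPM in glia-like cells of the SS2_20 plates, with 5.21 and 6.25 CPM on the SS2_18 plates. All 8 OM-like sums lay above all SGN-like and glia-like sums. It was 7.99-fold higher in OM-like than in SGN-like cells (log2 3.00 ± 0.85, adjusted p = 0.00543) and 39.7-fold higher than in glia-like cells (log2 5.31 ± 1.02, adjusted p = 0.000768), both called in all 19 alternatives, and the log2 values without SS2_18 were 3.28 ± 0.75 and 7.43 ± 0.95. In glia-like cells it was lower than in SGN-like cells by log2 -2.31 ± 0.89 (adjusted p = 0.0332), a call lost in 5 alternatives, and by -4.15 ± 0.84 (adjusted p = 0.000605) without SS2_18.

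Cntn4 was at 4.87 to 11.9 CPM in SGN-like cells and at 0 to 0.544 CPM in glia-like cells, except for 3.41 CPM in the 11 cells of E16.5 replicate 2. In OM-like cells it was spread widely, from 0 CPM on E15.5 replicate 1 to 78.3 CPM at E17.5. SGN-like and OM-like cells therefore overlapped (log2 0.39 ± 0.82, adjusted p = 0.711, or 0.35 ± 0.89 without SS2_18), while glia-like cells were 20.0-fold lower than SGN-like cells (log2 -4.33 ± 0.90, adjusted p = 0.000463) and OM-like cells 26.3-fold higher than glia-like cells (log2 4.71 ± 0.91, adjusted p = 0.000836). The last 2 were called in all 19 alternatives, with log2 values of -4.89 ± 0.97 and 5.25 ± 0.97 without SS2_18.

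Cntn6 was the only contactin with a higher mean level in glia-like cells than in SGN-like and OM-like cells, but edgeR called neither difference. It was at 0.508 to 15.95 CPM in glia-like cells (median 6.32 CPM), 0.189 to 4.21 CPM in SGN-like cells and 0 to 7.60 CPM in OM-like cells. In all, 7 of the 8 glia-like sums lay above all SGN-like sums, and the log2 value was 1.46 ± 0.88 (adjusted p = 0.166), or 1.38 ± 1.09 without SS2_18, and only the SGN-like cells with the least glial signal gave a call (adjusted p = 0.0116). Against glia-like cells the OM-like log2 value was -2.52 ± 1.00 (adjusted p = 0.0819), or -3.71 ± 1.35 without SS2_18 (adjusted p = 0.0522), and DESeq2 called it (adjusted p = 0.0107). In OM-like cells Cntn6 was at 0 to 0.239 CPM on the E14.5 and E15.5 plates and at 2.94 to 7.60 CPM on the later ones. The OM-like minus SGN-like log2 value was -5.09 on the earlier and 0.96 on the later plates, a difference with an unadjusted p of 0.000366 that was not called by edgeR after adjustment (adjusted p = 0.0915).

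Tenm4 showed the reverse of the neuronal contactins. It was at 61.5 to 148 CPM in SGN-like cells (median 90.2 CPM) and at 154 to 467.5 CPM in glia-like cells (median 209 CPM), with no overlap. OM-like cells held 226 to 501 CPM on the SS2_20 plates and 71.0 and 43.25 CPM on the SS2_18 plates, where SGN-like cells held 74.8 and 76.4 CPM. Tenm4 was 2.68-fold higher in glia-like cells (log2 1.42 ± 0.35, adjusted p = 0.0017) and 2.36-fold higher in OM-like cells (log2 1.24 ± 0.34, adjusted p = 0.0045) than in SGN-like cells, and both were called in all 19 alternatives. Without SS2_18 the log2 values were 1.40 ± 0.29 and 1.55 ± 0.28.

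Tenm1 was at 0 to 4.19 CPM in glia-like, 0.827 to 7.33 CPM in SGN-like and 6.51 to 30.9 CPM in OM-like cells, apart from 0 CPM in the 45 OM-like cells of E17.5, where 3 counts would be 0.276 CPM. It was 24.1-fold higher in OM-like than in glia-like cells (log2 4.59 ± 0.97, adjusted p = 0.00181), a call kept in all 19 alternatives, with 5.22 ± 1.11 without SS2_18. Against SGN-like cells it was higher in OM-like cells by log2 2.29 ± 0.91 (adjusted p = 0.0373) and lower in glia-like cells by -2.30 ± 0.86 (adjusted p = 0.0295). The first of these was lost in 7 of 19 alternatives (log2 2.42 ± 1.03, adjusted p = 0.057 without SS2_18) and the second in 5, while it was -2.80 ± 1.01 (adjusted p = 0.0265) without SS2_18.

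Tenm2 was at 27.6 to 80.3 CPM in SGN-like cells and at 9.95 to 26.1 CPM in OM-like cells, with no overlap and a 3.14-fold difference (log2 -1.65 ± 0.33, adjusted p = 0.000277) that was -1.64 ± 0.44 without SS2_18. In glia-like cells it was at 2.91 and 11.9 CPM at E14.5, 32.8 and 35.1 CPM at E15.5, and 44.8 to 65.1 CPM at E16.5 and E17.5. Its glia-like sums thus lay below all SGN-like sums at E14.5 and among them at E16.5 and E17.5. The glia-like minus SGN-like log2 value was -0.72 ± 0.33 over all plates (adjusted p = 0.0695) and was called in 5 of 19 alternatives, among them DESeq2 (adjusted p = 0.0264). It was -1.43 at E14.5 and E15.5 and -0.14 later, and the test of that change was not called (unadjusted p = 0.0425, adjusted p = 0.479). The OM-like against glia-like value of -0.93 ± 0.33 was called at an adjusted p that rounds to 0.05 and was lost in 15 of 19 alternatives, among them the SS2_20 plates alone (log2 -0.87 ± 0.44, adjusted p = 0.164) and the plate block (log2 -0.92, adjusted p = 0.0635).

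Tenm3 was the most even of the 10 genes across these classes. It was at 264 to 454 CPM in SGN-like cells (median 345 CPM), 268 to 461 CPM in glia-like cells (median 346 CPM) and 93.2 to 418 CPM in OM-like cells (median 223 CPM). The glia-like and SGN-like values overlapped over their whole range, with a log2 difference of -0.02 ± 0.18. In OM-like cells it was lower than in SGN-like cells by log2 -0.58 ± 0.18 (adjusted p = 0.0119, called in all 19 alternatives; -0.81 ± 0.20 without SS2_18). It was lower than in glia-like cells by -0.56 ± 0.18 (adjusted p = 0.0364), which was lost in 8 alternatives including the plate block (adjusted p = 0.0598), while the value was -0.81 ± 0.20 (adjusted p = 0.00676) without SS2_18.

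Before E17.5 the study separates unspecialized neurons from 2 emerging lineages, the Ic neurons and an intermediate lineage that leads to Ia, Ib and II neurons. Tenm2 and Cntn4 were higher in Ic-like than in Ia/Ib/II-like cells, and both calls were lost without the SS2_18 plates. The Cntn4 call was also lost without either E15.5 plate or E16.5 replicate 3 (adjusted p from 0.0678 to 0.0729). The fit held 17 sums (7 unspecialized, 5 Ia/Ib/II-like and 5 Ic-like), and 2 of the 10 genes were called against 0.294% of the 12936 genes tested, with a median log2 fold change of 0.42 against 0.05. Summed glial markers were low in these classes, at 164 to 373 CPM at E15.5 and 152 to 980.5 CPM at E16.5 in the Ia/Ib/II-like and Ic-like sums. On the SS2_18 plates they were higher in Ic-like (786 and 980.5 CPM) than in Ia/Ib/II-like sums (390.2 and 322.5 CPM). Summed OM markers were higher in Ic-like than in Ia/Ib/II-like sums on the 3 plates of E16.5, at 256 against 116, 113 against 65.7 and 339 against 60.5 CPM. At E15.5 they were about equal on replicate 1 (68.2 against 65.0 CPM) and lower in Ic-like sums on replicate 2 (38.2 against 160.0 CPM). The part of either in the values was not tested.

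**Figure D3:**
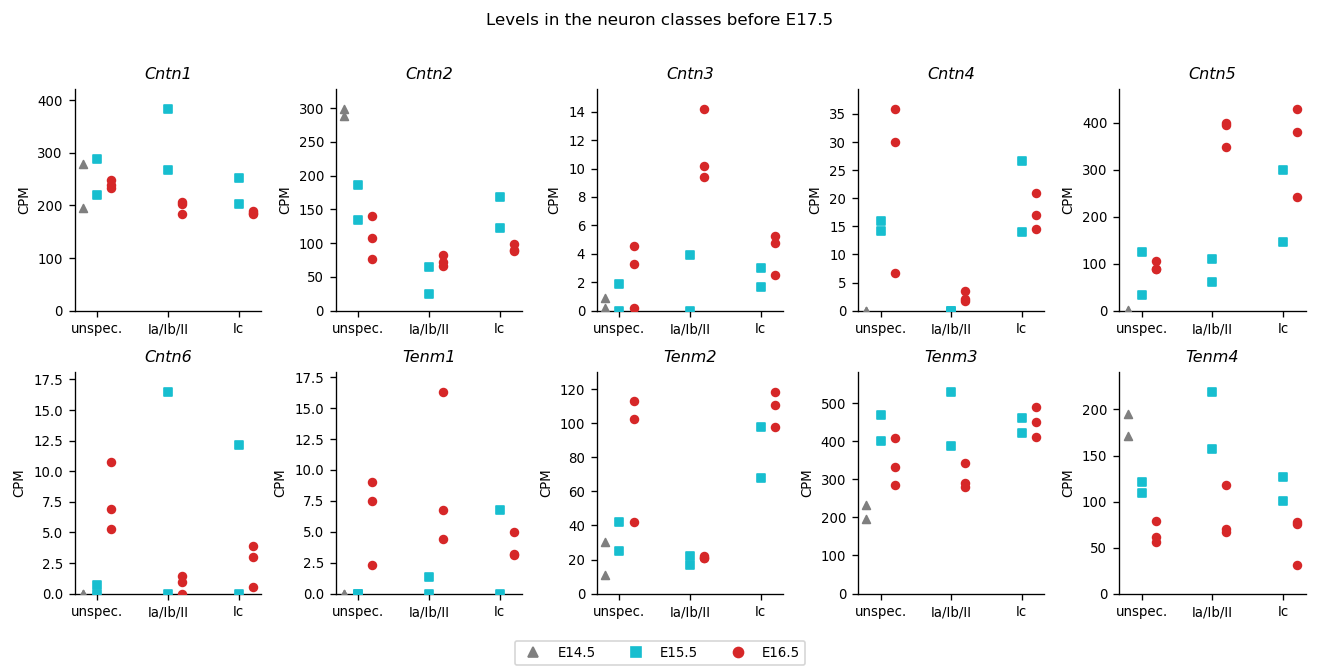
Level of each gene in CPM (linear axes that start at 0 and differ between genes) in unspecialized, Ia/Ib/II-like and Ic-like neurons of E14.5 to E16.5, with 1 point per plate and stages shown by marker and colour. For Tenm2 all Ic-like points (68.1 to 118 CPM) lie above all Ia/Ib/II-like points (17.0 to 22.04 CPM), and for Cntn5 the E14.5 unspecialized points lie at or near 0.

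Tenm2 was at 17.0 and 21.96 CPM at E15.5 and 21.1, 22.04 and 21.0 CPM at E16.5 in Ia/Ib/II-like cells. In Ic-like cells of the same plates it was at 97.7 and 68.1 CPM and at 118, 110.5 and 98.1 CPM. The classes were apart on all 5 plates, with a 4.83-fold difference (log2 2.27 ± 0.34, adjusted p = 0.00934). Within the SS2_20 plates the log2 value was about as large at 2.13 ± 0.47, but it was not called (unadjusted p = 0.000936, adjusted p = 0.732), and the call was also lost without E16.5 replicate 1 (adjusted p = 0.135) or replicate 2 (adjusted p = 0.173). Unspecialized cells were at 11.1 and 30.2 CPM at E14.5, 41.9 and 24.96 CPM at E15.5 and 113, 103 and 42.2 CPM at E16.5, a range that overlapped with both lineages.

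Cntn4 had no read in the Ia/Ib/II-like cells of E15.5 (19 and 5 cells) and was at 2.12, 1.68 and 3.54 CPM at E16.5. Ic-like cells were at 26.5 and 13.96 CPM at E15.5 and 20.9, 17.0 and 14.49 CPM at E16.5. Again no plate overlapped (log2 3.88 ± 0.78, adjusted p = 0.0451), and the call was lost in 12 of 17 alternatives, among them the SS2_20 plates alone (log2 4.42 ± 1.67, adjusted p = 0.876) and the plate block (log2 3.83, adjusted p = 0.122). Over those 12 the log2 value ran from 2.34, in the cells with the least glial signal, to 4.99, without the top 5% of cells by counts. The fitted value depends on the prior count, since the Ia/Ib/II-like sums of E15.5 held no read. Unspecialized neurons had no Cntn4 read on either E14.5 plate (38 and 27 cells, where 3 counts would be 0.303 and 0.436 CPM) and were at 6.64 to 35.9 CPM at E15.5 and E16.5.

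Cntn2 and Cntn5 were not called between the 2 lineages, and unspecialized cells were not tested against them. Cntn2 was at 288.5 and 299 CPM in unspecialized cells of E14.5, 134 and 186 CPM at E15.5 and 108, 140.0 and 76.2 CPM at E16.5. Ic-like cells (88.7 to 168.2 CPM) lay above Ia/Ib/II-like cells (24.3 to 81.75 CPM) on every plate, but the difference was not called (log2 0.82 ± 0.27, adjusted p = 0.376). Cntn5 was nearly absent from unspecialized cells of E14.5, at 0.506 CPM on replicate 1 and 0 CPM on replicate 2 (3 counts would be 0.436 CPM), although all SGN-like cells of those plates together held 69.2 and 174 CPM. Its E14.5 reads therefore came from SGN-like cells outside that class, to which the clustering gave no class name. At E16.5 unspecialized cells were at 88.7, 89.0 and 105 CPM of Cntn5, below the 349.1, 395 and 398 CPM of Ia/Ib/II-like cells and the 379.5, 429 and 241 CPM of Ic-like cells on all 3 plates. Between the 2 lineages its log2 value was 0.38 ± 0.38 (adjusted p = 0.874).

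The other 6 genes did not separate the 2 lineages. Tenm3 was at 279.5 to 529 CPM in Ia/Ib/II-like and 412 to 488.5 CPM in Ic-like cells (log2 0.34 ± 0.15, adjusted p = 0.629), and Tenm4 at 67.3 to 219 and 30.65 to 127 CPM (log2 -0.55 ± 0.23, adjusted p = 0.616). Both had an unadjusted p under 0.05, and Tenm3 was called only with the glial code genes kept in the clustering (adjusted p = 0.0172). Cntn1, Cntn3, Cntn6 and Tenm1 had adjusted p from 0.772 to 0.97, with Cntn1 at 184 to 383 CPM in both classes and the other 3 at 0 to 16.47 CPM.

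At E18.5 and P3 the mature classes can be compared: type II-like cells with type I cells, and Ib-like and Ic-like with Ia-like cells. Tenm2 and Tenm3 were higher in Ib-like and Ic-like than in Ia-like cells, and Cntn3 was lower in both. Cntn5 was lower in Ic-like than in Ia-like cells. Type II-like cells had more Cntn2 than every type I class. Against the mean of the type I classes on the log scale they had more Tenm1 and Cntn4, though less Cntn4 than Ic-like cells at E18.5, and less Tenm2, at levels that overlapped with Ia-like cells. The fit over 15 sums (4 each of Ia-like, Ib-like and Ic-like and 3 of II-like cells, with stage as a term) called 4 of the 10 genes between II-like and type I cells (18.7% of 15046 genes), 3 between Ib-like and Ia-like cells (1.56%) and 4 between Ic-like and Ia-like cells (4.41%). The median log2 fold changes of the 10 were -0.11, -0.69 and 0.13, against -0.01 to 0.00 over all genes.

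**Figure D4:**
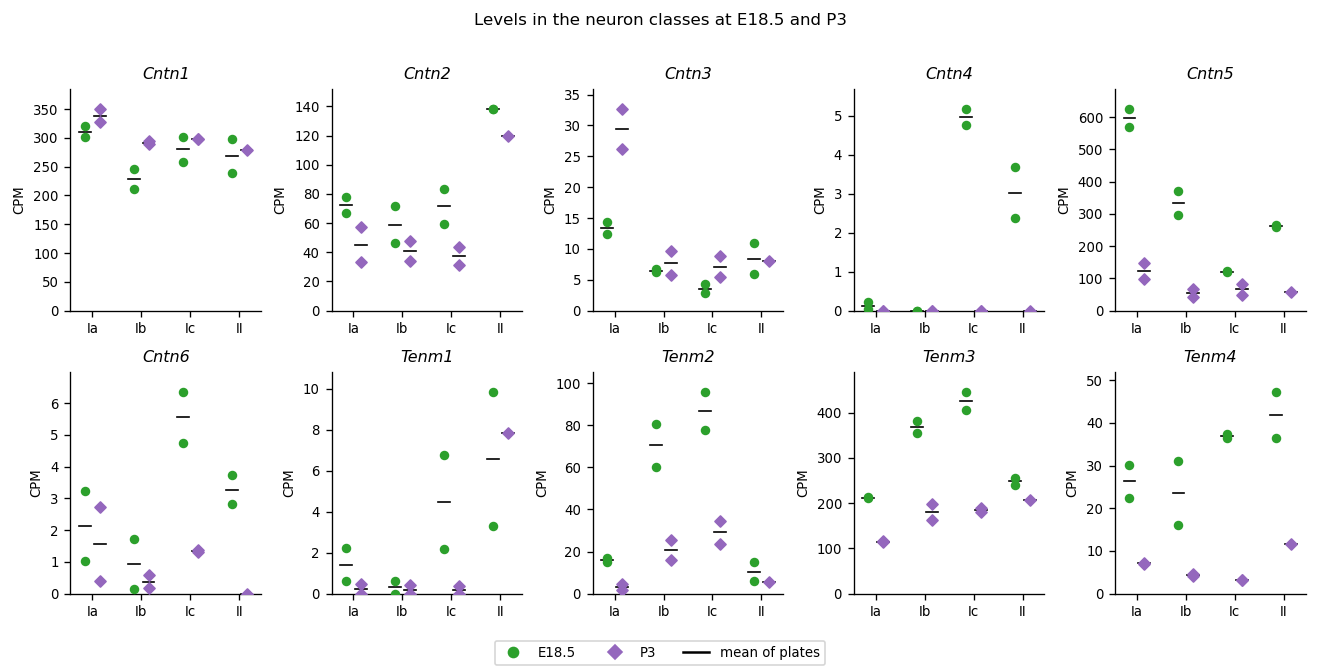
Level of each gene in CPM (linear axes that start at 0 and differ between genes) in Ia-like, Ib-like, Ic-like and II-like neurons at E18.5 (circles) and P3 (diamonds), with 1 point per plate and bars for stage means. Tenm2 is high in Ib-like and Ic-like cells (60.4 to 95.8 CPM at E18.5) and low in Ia-like and II-like cells, Cntn5 is highest in Ia-like cells, and Cntn2 is highest in II-like cells.

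Summed glial markers in these sums were 2680 and 2995 CPM in Ia-like, 2191 and 1646 CPM in Ib-like, 3783 and 5657 CPM in Ic-like and 7346 and 5451 CPM in II-like cells at E18.5, and 5265 to 7686 CPM over all 4 classes at P3. They were thus highest in II-like cells on E18.5 replicate 1 and in Ic-like and II-like cells on replicate 2, and their part in the class differences was not tested. In the SGN-like cells with the least glial signal, 2 of the 10 genes were called for II-like against type I cells, 0 for Ib-like against Ia-like cells and 2 for Ic-like against Ia-like cells, with fewer cells in each sum. Only 4 II-like cells came from P3 replicate 2, so that plate has no II-like sum.

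Tenm2 was at 16.7 and 15.2 CPM in Ia-like cells at E18.5 and at 1.50 and 4.43 CPM at P3. Ib-like cells were at 80.45 and 60.4 CPM and then at 25.3 and 15.9 CPM, Ic-like cells at 95.8 and 77.75 CPM and then at 34.7 and 23.5 CPM, and II-like cells at 14.9 and 5.83 CPM and then at 5.57 CPM. At each stage all Ib-like and Ic-like sums lay above all Ia-like and II-like sums. The difference from Ia-like cells was 5.48-fold for Ib-like cells (log2 2.45 ± 0.37, adjusted p = 0.00265) and 6.98-fold for Ic-like cells (log2 2.80 ± 0.38, adjusted p = 0.00044). In the cells with the least glial signal the log2 values were about as large, 2.46 and 2.71, and were not called (adjusted p = 0.186 and 0.0719), and the Ib-like call was also lost without E18.5 replicate 1 (adjusted p = 0.0613). II-like cells were 3.63-fold below the mean of the type I classes (log2 -1.86 ± 0.38, adjusted p = 0.00317), a value that was -1.87 in the cells with the least glial signal and was not called there (adjusted p = 0.228).

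Tenm3 was likewise lowest in Ia-like cells among the type I classes, and Ib-like and Ic-like cells were not tested against each other. It was at 211 and 213 CPM in Ia-like, 355 and 380.2 CPM in Ib-like, 407 and 445 CPM in Ic-like and 256 and 240.4 CPM in II-like cells at E18.5. At P3 it was at 115 and 113 CPM in Ia-like, 197 and 163 CPM in Ib-like, 189 and 181 CPM in Ic-like and 207 CPM in II-like cells. Ia-like cells were lowest on every plate. The log2 difference from Ia-like cells was 0.75 ± 0.13 for Ib-like (adjusted p = 0.00862) and 0.82 ± 0.13 for Ic-like cells (adjusted p = 0.00221), and the second was lost only in the cells with the least glial signal (log2 0.75, adjusted p = 0.0671). The first was lost there too (log2 0.70, adjusted p = 0.16) and without either E18.5 plate (adjusted p = 0.129 and 0.0853). II-like cells were not called against the type I mean (log2 -0.16 ± 0.12, adjusted p = 0.419) except without P3 replicate 1 (adjusted p = 0.0215).

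Cntn3 ran the other way. Ia-like cells were at 14.4 and 12.5 CPM at E18.5 and 26.1 and 32.6 CPM at P3, above the 5.82 to 9.69 CPM of Ib-like and the 2.81 to 8.81 CPM of Ic-like cells at either stage. The log2 value was -2.01 ± 0.33 for Ic-like against Ia-like cells (4.02-fold, adjusted p = 0.00201), called in all 13 alternatives. For Ib-like against Ia-like cells it was -1.49 ± 0.32 (adjusted p = 0.0308), which was lost in 8 of 13 alternatives, among them the plate block (log2 -1.51, adjusted p = 0.058) and each of the 4 plates left out in turn.

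Cntn5 separated the type I classes most clearly at E18.5. It was at 625.2 and 571 CPM in Ia-like, 370.0 and 297 CPM in Ib-like, 266 and 259.8 CPM in II-like and 122.5 and 119 CPM in Ic-like cells, an order without overlap. At P3 it was at 148 and 98.1 CPM in Ia-like, 68.2 and 42.55 CPM in Ib-like, 82.5 and 49.5 CPM in Ic-like and 57.4 CPM in II-like cells, and only Ia-like cells lay above the rest. Over both stages Ic-like cells were lower than Ia-like cells by log2 -1.53 ± 0.31 (2.90-fold, adjusted p = 0.00997), a call lost without either E18.5 plate (adjusted p = 0.128 and 0.152) and under the Reporting Summary cell filter (adjusted p = 0.0734). The Ic-like minus Ia-like value was -2.37 at E18.5 and -0.91 at P3, and edgeR did not call that change (adjusted p = 0.0618). The Ib-like value of -0.95 ± 0.30 was not called (adjusted p = 0.181) except with no low-count filter (adjusted p = 0.0108).

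Cntn2 was higher in II-like than in type I cells at E18.5 and P3. The II-like sums held 138.1 and 137.9 CPM at E18.5 and 119.6 CPM at P3, above all type I sums, which ran from 46.4 to 83.55 CPM at E18.5 and from 31.3 to 57.2 CPM at P3. The difference was 2.20-fold (log2 1.14 ± 0.17, adjusted p = 0.000379) and was called in all 13 alternatives, the cells with the least glial signal included. Among type I classes Cntn2 had adjusted p of 0.747 and 0.82. Levels like those of II-like cells were also found earlier, as in Ic-like cells before E17.5 (88.7 to 168.2 CPM).

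Tenm1 and Cntn4 were called in the same comparison at low levels. Both were also found in OM-like cells, and summed OM markers at E18.5 were 1393 and 803 CPM in II-like, 627 and 931 CPM in Ic-like, 423 and 359 CPM in Ia-like and 345 and 169.8 CPM in Ib-like cells, so they were higher in the classes that held Cntn4. Their part in these values was not tested. Tenm1 was at 3.29 and 9.83 CPM in II-like cells at E18.5 and 7.84 CPM at P3, against 0 to 6.78 CPM in type I cells, which overlapped at E18.5 through the Ic-like sum of replicate 2. The difference was 10.8-fold (log2 3.44 ± 1.08, adjusted p = 0.0381) and was lost without P3 replicate 1 (log2 2.27, adjusted p = 0.169) or either E18.5 plate (log2 3.95 and 4.01, adjusted p = 0.0915 and 0.111). The fold depends on the prior count, since some type I sums held no read of Tenm1. Cntn4 was at 2.38 and 3.67 CPM in II-like and 5.17 and 4.76 CPM in Ic-like cells of E18.5, at 0.215 and 0.0473 CPM in Ia-like cells, and without a read in Ib-like cells or in any class at P3. No fold is given for it, since Ib-like cells were at 0 on all 4 plates. The II-like call (adjusted p = 0.0331) was lost in 5 of 13 alternatives, among them the plate block (adjusted p = 0.0554) and DESeq2 (adjusted p = 0.129). It was also lost in the cells with the least glial signal, where the fitted value changed sign. Ic-like cells lay above II-like cells at E18.5.

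Cntn1, Cntn6 and Tenm4 were called between none of these classes by edgeR. Cntn1 was at 212 to 350 CPM in all 4 classes and Cntn6 at 0 to 6.35 CPM. Tenm4 was at 47.2 and 36.4 CPM in II-like and 16.2 to 37.4 CPM in type I cells at E18.5, and at 11.6 and 3.09 to 7.29 CPM at P3, with a II-like value of log2 0.73 ± 0.27 (adjusted p = 0.0808) that was called with no low-count filter (adjusted p = 0.0491) and with the glial code genes kept in the clustering (adjusted p = 0.0383). Over all 5 tests of a change in a class difference between stages, 50 in all for the 10 genes, edgeR called 0, with 14 at an unadjusted p under 0.05. Few genes of any kind were called in these tests, from 12 of 14596 to 286 of 15046.

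HC-like cells could be compared with SGN-like cells on the 2 plates of E18.5 (37 and 32 HC-like cells). Cochlear hair cells are the targets of SGN fibres, but the study also found vestibular hair cells among its cells and set them aside. The HC-like cells here were not split in that way and may hold both kinds. Cntn5, Cntn1, Tenm2 and Tenm3 were lower in HC-like cells, and Tenm4 and Cntn4 were higher. In all, 6 of the 10 genes were called against 57.2% of the 16065 genes tested, with a median log2 fold change of -1.58 against -0.05. The HC-like sums also held 1531 and 2030 CPM of summed SGN markers, against 13670 and 13170 CPM in the SGN-like sums. They held 4796 and 1552 CPM of summed OM markers, against 609 and 533 CPM in the SGN-like sums. Glial markers were lower in HC-like sums, at 1351 and 1205 CPM against 4020 and 4077 CPM in the SGN-like sums. Tenm4 and Cntn4, the genes called higher in HC-like cells, were also high in OM-like cells at earlier stages, and the part of these other classes in the values was not tested.

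Cntn5 was at 2.55 and 2.45 CPM in HC-like and 331 and 329.6 CPM in SGN-like cells, a 136-fold difference (log2 -7.09 ± 0.13, adjusted p = 3.56e-05). Tenm4 was at 154 and 142.9 CPM in HC-like and 33.95 and 30.25 CPM in SGN-like cells, a 4.49-fold difference in the other direction (log2 2.17 ± 0.12, adjusted p = 0.000159). These were the largest falls and rises among the 10 genes in this comparison, on both plates. Cntn1 was at 75.9 and 73.1 CPM in HC-like cells (log2 -1.90 ± 0.10, adjusted p = 0.000149), Tenm3 at 111 and 101.5 CPM (log2 -1.55 ± 0.11, adjusted p = 0.000304) and Tenm2 at 15.8 and 11.1 CPM (log2 -1.61 ± 0.22, adjusted p = 0.00297). All 5 were called in every one of 9 alternatives.

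Cntn4 was at 2.04 and 3.67 CPM in HC-like against 0.898 and 0.897 CPM in SGN-like cells (log2 1.62 ± 0.50, adjusted p = 0.0413), a call that was lost in 3 of 9 alternatives, namely the plate block (log2 1.57, adjusted p = 0.111), the SGN-like cells with the least glial signal (log2 1.31, adjusted p = 0.112) and glial code genes kept in the clustering (log2 1.52, adjusted p = 0.0506). Cntn2 was at 3.49 and 25.6 CPM in HC-like cells, a wide spread, and its value of log2 -2.29 ± 0.77 was not called (adjusted p = 0.0526) except with the plate block (adjusted p = 0.0304), with no low-count filter (adjusted p = 0.0137) and in the SGN-like cells with the least glial signal (adjusted p = 0.0351). Cntn3, Cntn6 and Tenm1 had adjusted p from 0.292 to 0.883. The smaller HC-like sums of E16.5 replicate 3 (8 cells) and E17.5 (5 cells) entered no test; they held 214.5 and 187.5 CPM of Tenm4, 119 and 298 CPM of Tenm3 and 54.95 and 0 CPM of Cntn6.

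A list of 22 known binding partners gives the setting in which the 10 genes changed, with all plates in each fit and under the main settings only. Among the latrophilins, which bind teneurins and are listed in the table as Lphn1, Lphn2 and Lphn3, Lphn3 fell from E17.5/E18.5 to P3 (log2 -1.54 ± 0.20, adjusted p = 0.000251), as did Tenm2, Tenm3 and Tenm4, while Lphn1 (-0.21 ± 0.17) and Lphn2 (0.26 ± 0.23) were not called. Flrt2 and Flrt3, which bind latrophilins beside teneurins, were higher in glia-like and OM-like than in SGN-like cells, by log2 2.49 ± 0.69 and 2.88 ± 0.39 in glia-like and 3.63 ± 0.71 and 2.48 ± 0.38 in OM-like cells (adjusted p from 4.53e-06 to 0.0047). Flrt3 was also 8.76-fold higher in II-like than in type I cells (log2 3.13 ± 0.36, adjusted p = 3.44e-05). At E18.5 the II-like sums held more glial markers (7346 and 5451 CPM) than the Ia-like and Ib-like sums (1646 to 2995 CPM). They also held more OM markers than those 2 classes, and the part of glial or OM RNA in the Flrt3 value was not tested.

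Among the partners of contactins, Cntnap1, which pairs with Cntn1 at the paranode, rose from E17.5/E18.5 to P3 (log2 1.75 ± 0.32, adjusted p = 0.00212), as Cntn1 did. Cntnap2, which pairs with Cntn2 at the juxtaparanode, was not called at P3 (log2 0.72 ± 0.29, adjusted p = 0.0879), was lower in II-like than in type I cells (log2 -0.83 ± 0.17, adjusted p = 0.00364), where Cntn2 was higher, and higher in Ib-like than in Ia-like cells (log2 1.17 ± 0.18, adjusted p = 0.00268). Ptprz1, a receptor phosphatase that binds Cntn1, was 37.1-fold higher in glia-like than in SGN-like cells (log2 5.21 ± 1.05, adjusted p = 0.000319), while its binding partner Cntn1 was lower there. App, which binds Cntn4, was higher in OM-like than in SGN-like (log2 1.54 ± 0.17, adjusted p = 4.27e-07) and glia-like cells (log2 1.19 ± 0.17, adjusted p = 3.44e-05). The adhesion proteins L1cam, Nrcam and Chl1, which bind contactins at the membrane, fell at P3 by log2 -0.94 ± 0.17, -0.62 ± 0.16 and -2.23 ± 0.32 (adjusted p from 0.00049 to 0.0128). Nfasc, the other member of that family on the list, was not called at P3 (log2 -0.30 ± 0.15, adjusted p = 0.151) and was higher in II-like than in type I cells (log2 0.95 ± 0.12, adjusted p = 0.000109). Ptprg, a receptor phosphatase that binds Cntn3 to Cntn6, fell at P3 (log2 -0.97 ± 0.29, adjusted p = 0.0282) and was higher in glia-like than in SGN-like cells (log2 0.70 ± 0.18, adjusted p = 0.00266).

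In counts, 2 of the 22 partners were called from E14.5 to E16.5 (both higher), 1 from E16.5 to E17.5/E18.5 (higher) and 8 at P3 (2 higher, 6 lower), against the shares of all genes given above. Of those tested, 13 of 20 were called between glia-like and SGN-like cells (4 higher, 9 lower, beside 54.6% of all genes), 15 of 20 between OM-like and SGN-like cells (3 higher, 12 lower, beside 55.9%) and 6 of 20 between OM-like and glia-like cells (beside 20.5%). Between neuron classes, 0 of 20 were called early (4 at an unadjusted p under 0.05 by edgeR, beside 0.294% of all genes called), 9 of 21 for II-like cells (3 higher, 6 lower, beside 18.7% of all genes), 2 of 21 for Ib-like (beside 1.56%) and 1 of 21 for Ic-like against Ia-like cells (beside 4.41%). HC-like cells differed from SGN-like cells in 17 of 21 (6 higher, 11 lower, beside 57.2%). Cntnap4 was the partner called higher in both Ib-like and Ic-like than in Ia-like cells, by log2 1.03 ± 0.14 and 1.09 ± 0.14, the pattern of Tenm2 and Tenm3.

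**Figure D5:**
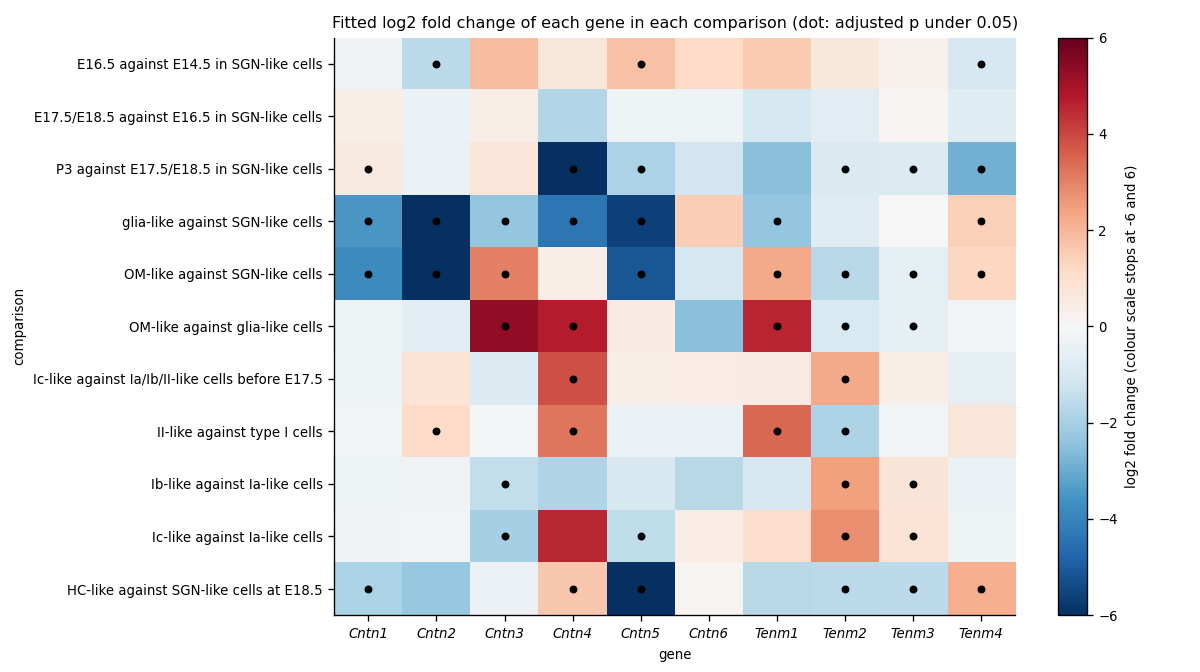
Fitted log2 fold change of each of the 10 genes (columns) in each of the 11 comparisons (rows), with red for higher and blue for lower in the first-named group; the colour scale stops at -6 and 6, and dots mark an adjusted p under 0.05. The map holds 48 dots in 110 cells, and the cell of Cntn4 at P3 has no read in P3 and shows the colour limit rather than a measured fold.

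Over the 35 class sums of the plates (SGN-like, glia-like, OM-like and HC-like), the genes whose log2(CPM + 1) most resembled each of the 10 were found among 13857 genes. The values are Pearson correlations over sums that share plates, classes and depth, and they include the SS2_18 and E18.5 sums that carry markers of other classes. Cntn2 was most like Nacad (r = 0.98) and Pou4f1 (r = 0.977), a transcription factor of sensory neurons, and Cntn5 most like Epha10 (r = 0.964), an ephrin receptor. Cntn1 was most like Hecw1 (r = 0.947) and Rnf157 (r = 0.945), and Cntn3 most like Adrbk2 (r = 0.861) and Igdcc4 (r = 0.856). For Cntn4 these were Grm4 (r = 0.786) and Ralgps2 (r = 0.764), and for Cntn6 BC026585 (r = 0.725) and Gm9054 (r = 0.693). Tenm1 was most like Tmem119 (r = 0.822) and Aldh1a2 (r = 0.798), an enzyme of retinoic acid synthesis, and Tenm2 most like Rab11fip2 (r = 0.866) and Usp35 (r = 0.836). Tenm3 was most like Sbf2 (r = 0.829) and Ephb2 (r = 0.799), an ephrin receptor of axon guidance, and Tenm4 most like Igf1r (r = 0.908) and Sufu (r = 0.882).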

How the data were processed

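Smart-seq2 libraries of single sorted cells from 12 plates were analysed, with the plate as replicate. The deposited values are raw read counts per gene and well, which the authors made by demultiplexing, 2-pass STAR alignment to mm10 with spike-in sequences and featureCounts on uniquely mapped reads. No molecular identifiers were used, so counting floors cover counting error only, and the annotation and strand setting are not given in the sources used here, so reads of antisense neighbours cannot be told apart. A further 384 wells that belong to no labelled sample were not used.

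Cells with at least 1000 genes and at most 5% spike-in counts were kept, scaled, reduced to 2000 variable genes and 30 components, and clustered (scanpy 1.11.5, Leiden resolution 1). The 10 genes and their partners took no part in the clustering. Clusters were named from fixed markers. The naming rule and the genes left out of neuron sub-clustering (glial and mesenchymal markers and genes that follow them) were revised after cluster tables were seen and before any of the 10 genes was tested. No doublet caller was run; an alternative leaves out the top 5% of cells by counts. Counts were summed per plate and class (at least 5 cells) and tested with edgeR 4.0.16 (R 4.3.3; TMM, filterByExpr, glmQLFit, glmQLFTest), two-sided, with Benjamini-Hochberg adjustment over all genes tested. SE is the absolute log2 fold change divided by the square root of F. DESeq2 1.42.0 was an alternative. The scripts were tested on simulated data. Classes of 1 plate share its animals, so plate was the replicate block in an alternative. Sums of the same plate had median correlations of residuals of -0.096, -0.258 and -0.051 in the late, broad and early class fits. For sums of other plates of the stage the medians were lower, at -0.202, -0.278 and -0.25.

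By rule, all 10 genes and the 2 most similar genes of each were named, except that 1 similar gene is not reported here. The 22 partners were described by counts, and named where they are known to bind a gene described. The members and lists were chosen with earlier results of these data known.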

Additional observations from a re-analysis of the deposited data

Results flagged for a closer look

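Within groups of 4 to 8 sums, a value was picked out where its gap to the nearest other sum was large against the range of the group; 90 groups were examined, and chance picks out about 1 group in 20. Cntn4 in glia-like cells was at 3.41 CPM on E16.5 replicate 2 (11 cells), against 0 to 0.544 CPM on the other plates. Cntn6 in glia-like cells was lowest on E14.5 replicate 2 at 0.508 CPM, the TrkCcre plate, against 4.91 to 16.0 CPM elsewhere. Tenm1 in OM-like cells was at 0 CPM at E17.5, against 6.51 to 30.9 CPM. Cntn2 in Ia/Ib/II-like cells was at 24.3 CPM on E15.5 replicate 2 (5 cells), against 64.3 to 81.8 CPM. Tenm2 in the same class was at 17.0 CPM on E15.5 replicate 1, against 21.0 to 22.04 CPM. Cntn1 in Ic-like cells was at 257 CPM on E18.5 replicate 2, against 297 to 302 CPM.

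The 25 otic epithelium-like cells entered no comparison, and 3 counts of their total would be 0.485 CPM. Their summed reads gave 237 CPM of Tenm4 (23 cells with a read), 117 CPM of Tenm3 (21 cells), 55.9 CPM of Cntn5 (8 cells), 23.8 CPM of Cntn1 (3 cells) and 16.3 CPM of Cntn6 (2 cells).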

How the results depend on the processing

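Of the 48 calls among 110 pairs of gene and comparison, 24 held in every alternative run and 24 were lost in at least 1, and 17 pairs that were not called became called in some; each pair had 9 to 22 alternatives. In 1 of the lost calls the fitted value also changed sign. Cntn4 in II-like against type I cells was -3.32 (log2) in the SGN-like cells with the least glial signal and was not called there. In those cells, 6 of the 10 genes were called from E14.5 to E16.5, 3 between OM-like and glia-like cells, 1 between the early lineages, 2 for II-like cells, 0 for Ib-like and 2 for Ic-like against Ia-like cells. Between OM-like and glia-like cells RLE factors and the plate as replicate block each left 3. Between the early lineages the SS2_20 plates alone left 0, and the replicate block, the Reporting Summary cell filter, leaving out the top 5% of cells and Leiden resolution 2 each left 1. The cause was not tested, and some of these settings hold fewer cells or plates. Leaving out 1 plate at a time gave 1 to 4 called genes from E14.5 to E16.5, 0 to 2 from E16.5 to E17.5/E18.5, 2 to 7 at P3, 5 to 7 between glia-like and SGN-like cells, 7 to 8 for OM-like against SGN-like cells, 3 to 4 between OM-like and glia-like cells, 0 to 2 between the early lineages, 2 to 4 for II-like cells, 0 to 2 for Ib-like and 3 to 4 for Ic-like against Ia-like cells. The replicate block changed no call other than those given with the results. No paired analysis was possible for the stage comparisons because replicate numbers there follow accession order and each plate holds 1 stage. For hair cells, leaving out a plate leaves 1 sum a class and gave no value, and the SS2_20 plates hold no P3, late class or hair cell comparison. The alternative without the E14.5 cluster led by nociceptor genes was chosen after seeing the data. Depth limits Cntn3, Cntn4, Cntn6 and Tenm1, which had few or no reads in some sums.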

Other observations

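Across the 35 class sums, the levels of Cntn2 and Cntn5 (r = 0.877), Cntn1 and Cntn2 (r = 0.861) and Cntn1 and Cntn5 (r = 0.76) ran together on the log2(CPM + 1) scale, and Cntn1 and Tenm4 ran opposite (r = -0.738); the sums share plates and classes, and these are descriptions. The 35 cells without a class name held 256 CPM of Tenm3, 225 CPM of Tenm4 and 49.6 CPM of Cntn2 in their summed reads. The 6 blood and immune cells held 1 read of Tenm3 in 1872918 counts.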
